A study of Saccharomyces cerevisiae with 144 samples.

Results

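The 150 yeast genes described here kept the most newly synthesized RNA when Bdf1 and Bdf2 were depleted in the strain Bdf1/2-AID. For each gene, T>C reads were divided by all reads of the library, and the mean of the 3 IAA libraries of Bdf1/2-AID was divided by that of its 3 DMSO libraries. Among the 1958 genes with a mean of at least 30 T>C reads in those DMSO libraries, of 6465 counted, the 150 with the highest ratio were taken, so the members were selected on the T>C reads of Bdf1/2-AID and all passed the filter on low counts by construction. The libraries of Bdf1/2-AID that chose the genes are given only as a description, with the shares of all genes called in them. Every other test below uses the other 22 strains. The values of those strains were already known when the genes were chosen to be described, so they are no prediction.

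Bdf1 and Bdf2 are the BET proteins of Saccharomyces cerevisiae. Their bromodomains bind acetylated histones and the extra-terminal (ET) domain binds partner proteins, and they act at promoters together with TFIID, the general factor that carries TBP. In yeast, promoters with a consensus TATA box often belong to stress, metabolic and other regulated genes and depend less on TFIID than the promoters of ribosomal protein and other growth genes. In SLAM-seq, RNA made during a pulse of 4-thiouracil carries uridines that are read as C, so reads with T>C conversions stand for new RNA and all reads together stand mostly for RNA made earlier.

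All strains carried BDF1-3xV5-mAID::URA3 and BDF2-3xV5-mAID::KanMX at the endogenous loci and pGPD1-OsTIR1:HIS3, a plant F-box protein through which IAA (3-indoleacetic acid, an auxin) leads to degradation of the tagged proteins. Cells received IAA or the vehicle DMSO for 25 min and then 4-thiouracil for 4 min. Bdf1/2-AID had no further copy of BDF1, while 21 strains had a BDF1 variant at the TRP1 locus under the BDF1 promoter and 1 strain, WT, had unmodified BDF1 there. In variant names, Δ marks a deletion, m a mutation and p a phosphomimetic mutation. The regions are the bromodomains (BD1 and BD2), phosphorylation sites towards the N terminus (NPS) and the C terminus (CPS), motif B, the basic interaction domain (BID), the ET domain and intrinsically disordered regions (IDRs), and the number in mET(1), mET(2) and mET(4) is that of acidic ET residues mutated. There were 6 IAA and 6 DMSO libraries of WT, replicates A to F, and 3 of each of the other strains, replicates A to C. In DMSO the tagged endogenous proteins were still present, and per the study the proteins of ΔBD2, ΔBD1/2 and ΔIDRs were missed by its Bdf1 antibody but found, at somewhat reduced levels, in further strains with an epitope tag.

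Libraries held 4089393 to 21384793 reads, of which 34354 to 998627 were T>C reads. The members had a median of 100.2 T>C reads per library in WT in DMSO, and the gene with the fewest had a mean of 5.5. Replicates A to C and D to F of WT stood apart for many of these genes: the members took 7.31% to 8.13% (A to C) and 11.2% to 11.6% (D to F) of T>C reads in IAA, against 6.79% to 7.65% and 10.4% to 10.9% in DMSO. CCW12, a cell wall mannoprotein, had 25.6 to 36.1 T>C CPM (T>C reads of the gene scaled to 1000000 reads of all kinds in the library) in IAA replicates A to C of WT and 166 to 183 in D to F. Comparisons with WT are therefore given with each set alone as well. By library number, WT replicates A to C came directly before mET(4) and mBD1/2. Members took 4.84% to 6.21% of all reads in WT A to C, 6.14% to 10.2% in mET(4) and 6.11% to 7.62% in mBD1/2. In all other libraries, those of ΔET and WT D to F included, they took at least 10.5%. Whether this came from the variants or from the order of the libraries was not tested. Here a gene is called lower or higher when the adjusted p of edgeR's quasi-likelihood test, over all 1958 genes, is under 0.05.

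Promoters of the members shared a feature that the ratio did not use. In a window of 200 bases, from 250 to 51 bases before the start codon, a TATA sequence (the motif TATAAAA, the motif TATAAAT, the motif TATATAA or the motif TATATAT, on either strand, overlapping matches joined) was found for 88 of the 129 protein-coding members (68.2%), against 689 of the 1776 other protein-coding genes tested (38.8%). Over all 5994 protein-coding genes with such a window, 2595 had a match (43.3%). Windows of 7 members from RefSeq's R64 assembly are shown 5′ to 3′ with the matches in capitals, because these genes carry most of the results that follow. They are those of SER3 (chrV:322436-322635, plus strand), ENO1 (chrVII:1000677-1000876, plus), TDH2 (chrX:454732-454931, minus), DDR2 (chrXV:231806-232005, minus) and the divergent histone pair HHT2 (chrXIV:576101-576300, minus) and HHF2 (chrXIV:576477-576676, plus). TPI1 (chrIV:556523-556722, minus) is given as a member without a match.
SER3: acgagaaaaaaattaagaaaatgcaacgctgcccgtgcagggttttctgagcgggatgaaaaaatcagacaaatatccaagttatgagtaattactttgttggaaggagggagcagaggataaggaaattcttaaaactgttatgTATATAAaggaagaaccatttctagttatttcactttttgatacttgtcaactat
ENO1: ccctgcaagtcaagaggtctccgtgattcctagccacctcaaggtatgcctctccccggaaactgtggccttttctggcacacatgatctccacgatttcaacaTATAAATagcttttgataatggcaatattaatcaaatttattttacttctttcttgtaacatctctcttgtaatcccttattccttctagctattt
TDH2: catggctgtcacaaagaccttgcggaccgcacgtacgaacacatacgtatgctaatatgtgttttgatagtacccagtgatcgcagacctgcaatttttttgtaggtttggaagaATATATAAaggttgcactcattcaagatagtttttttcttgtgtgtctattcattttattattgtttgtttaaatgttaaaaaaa
DDR2: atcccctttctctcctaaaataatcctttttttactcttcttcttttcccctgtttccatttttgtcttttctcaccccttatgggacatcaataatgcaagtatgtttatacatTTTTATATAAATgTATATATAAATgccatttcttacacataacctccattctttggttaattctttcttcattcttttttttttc
HHT2: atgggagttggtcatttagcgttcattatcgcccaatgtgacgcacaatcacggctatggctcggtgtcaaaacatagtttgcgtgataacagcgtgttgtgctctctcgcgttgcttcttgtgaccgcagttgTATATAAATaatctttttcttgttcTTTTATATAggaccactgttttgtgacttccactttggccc
HHF2: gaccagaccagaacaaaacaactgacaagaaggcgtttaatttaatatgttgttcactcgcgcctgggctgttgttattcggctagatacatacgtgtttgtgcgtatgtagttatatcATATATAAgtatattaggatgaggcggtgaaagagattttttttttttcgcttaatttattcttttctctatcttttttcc
TPI1: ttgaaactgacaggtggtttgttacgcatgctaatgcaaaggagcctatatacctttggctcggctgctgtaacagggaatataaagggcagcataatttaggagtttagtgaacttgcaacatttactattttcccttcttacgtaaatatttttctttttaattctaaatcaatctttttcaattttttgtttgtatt
The first match began 105 bases before the start codon in SER3, 146 in ENO1, 135 in TDH2 and DDR2, 116 in HHT2 and 131 in HHF2. Matches were found in 12 of 15 glycolytic members (not in TPI1, PGI1 and PFK1), 5 of 6 histone genes, 3 of 3 hexose transporters, 3 of 3 genes of glycerol synthesis and 0 of 3 permease genes. The match did not order the members among themselves. On IAA in ΔET the median log2 change was −0.09 for members with a match and −0.14 for those without, against −1.10 and −1.23 for the other protein-coding genes with and without one.

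In Bdf1/2-AID, the contrast that chose the members, the ratio of IAA to DMSO ran over the members between 0.868 and 2.34 with a median of 0.964, against 0.341 over all genes tested, and 87% of all genes were called lower and 0.46% higher. The 10 highest ratios were those of SER3 (2.34), ENO1 (1.92), TDH2 (1.88), HSP12 (1.57), RTT101 (1.55), SNR70 (1.48), DDR2 (1.48), SNR40 (1.45), CMC4 (1.37) and SRX1 (1.29). SER3 encodes the first enzyme of serine synthesis, ENO1 an enolase and TDH2 a glyceraldehyde-3-phosphate dehydrogenase of glycolysis. HSP12 and DDR2 are stress genes under Msn2 and Msn4, SRX1 encodes sulfiredoxin, RTT101 a cullin, CMC4 a protein of the mitochondrial intermembrane space, and SNR70 and SNR40 are snoRNAs. The limit fell in a dense part of the ranking. ACC1 (0.870), MEP3 (0.869) and HHT1 (0.868) lay just inside it, and GDS1 (0.867), GLT1 (0.865) and HXT2 (0.861) just outside.

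When the ET domain was missing from the remaining Bdf1, these genes kept their new RNA while most others lost part of it. On IAA in ΔET, 3 members were called lower and 4 higher, where 73.6% of all genes were called lower and 0.204% higher. The median log2 change was −0.11 over the members and −1.13 over all genes, a difference of 1.02, and every member lay above the all-gene median. In mET(4), 1 member was called lower and 2 higher, against 52.6% and 0.102% of all genes. The members' median log2 change was −0.12 there and that of all genes −0.88, and 98.7% of members lay above the all-gene median.

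Which way the members moved in absolute terms depended on the scaling, and their distance from other genes did not. These values are per read of the library. With size factors of total reads, the median log2 change on IAA in ΔET was 0.64 over the members and −0.40 over all genes (0 members lower, 15 higher, beside 8.99% and 0.817% of all genes), and with TMM factors of T>C reads it was 0.92 and −0.09 (0 lower, 129 higher, beside 8.38% and 14.8%). Under TMM 160 genes other than members were called higher too. In mET(4) size factors gave 0.55 and −0.23 (0 lower, 3 higher, beside 1.07% and 0.255%) and TMM 0.74 and −0.03 (0 lower, 17 higher, beside 0.306% and 1.07%). The scalings thus moved the all-gene median by up to 1.04 in ΔET, so that a direction given below for a member is one relative to library totals. The 4 rises in ΔET were called under all 3 scalings, while none of the 3 falls was called under the other 2.

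The 4 members called higher in ΔET were SER3, ENO1, HSP12 and DDR2. SER3 (YER081W, counted region chrV:322686-324345) had 8.90, 7.23 and 10.7 T>C CPM in IAA, against 4.76, 4.34 and 4.75 in DMSO. Every IAA library was above every DMSO library, with a log2 change of 0.95 (SE 0.31, adjusted p = 0.00443, edgeR). ENO1 (YGR254W, chrVII:1000927-1002490) had 9.54, 12.3 and 11.01 in IAA, against 6.50, 5.08 and 7.52 in DMSO. Its groups did not overlap either (log2 change 0.77, SE 0.30, adjusted p = 0.0167, edgeR). HSP12 (YFL014W, chrVI:107256-107835), a small membrane-protecting heat shock protein, had 16.3, 15.4 and 22.2 in IAA and 6.74, 10.9 and 9.86 in DMSO (log2 change 0.98, SE 0.29, adjusted p = 0.00175, edgeR). DDR2 (YOL052C-A, chrXV:231320-231755), a multistress response gene, had 21.2, 22.4 and 15.8 in IAA and 9.09, 15.1 and 10.6 in DMSO (log2 change 0.78, SE 0.29, adjusted p = 0.0108, edgeR). For both genes the lowest IAA library lay above the highest DMSO library. TDH2 had 32.5, 38.5 and 31.6 in IAA and 31.5, 22.7 and 21.7 in DMSO. The lowest IAA library was barely above DMSO replicate A, and the gene was not called (log2 change 0.43, SE 0.28, adjusted p = 0.144, edgeR).

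**Figure D1:**
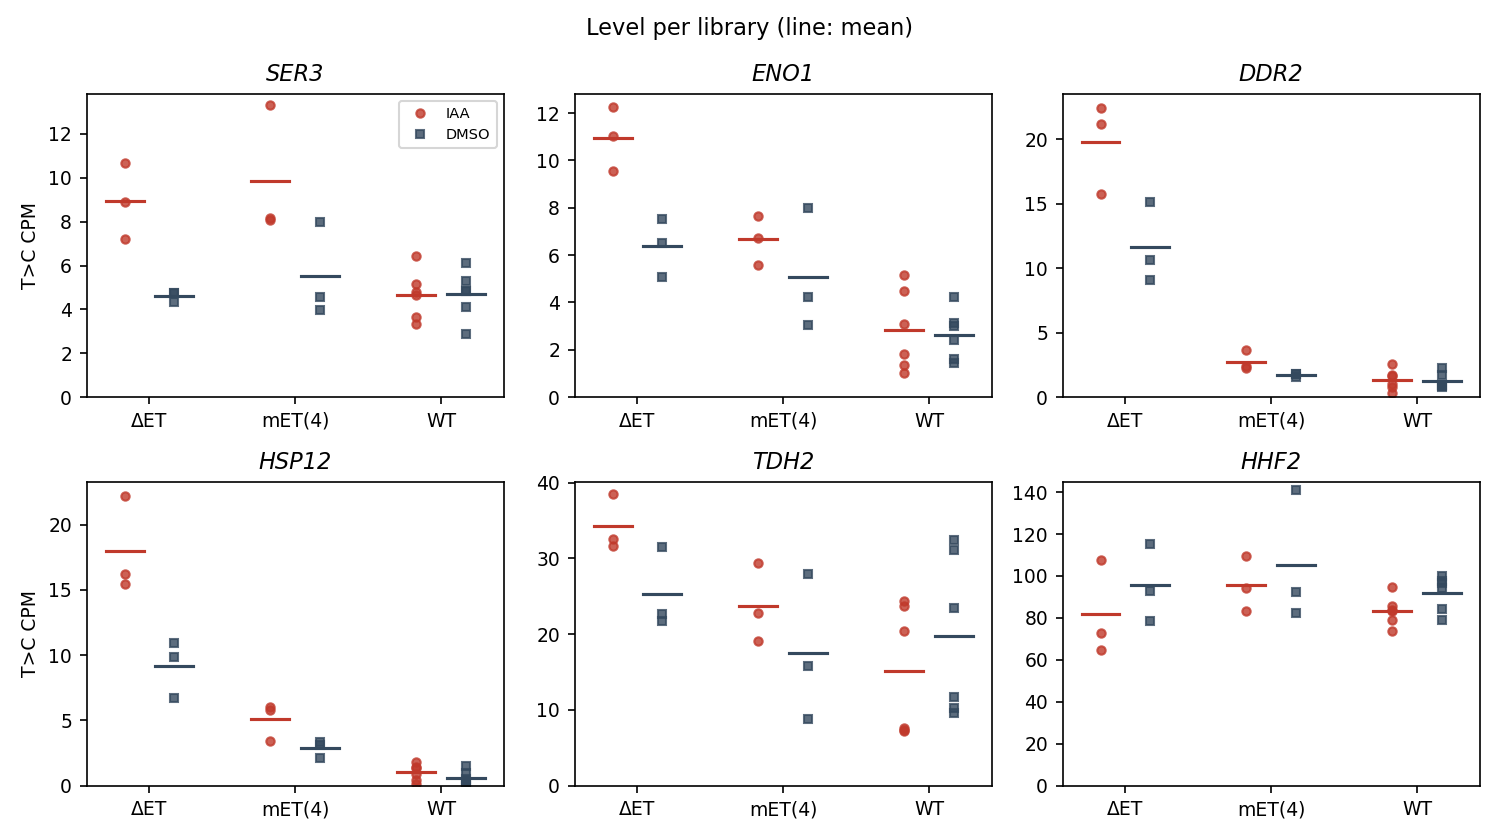
T>C CPM (linear axes from 0) of SER3, ENO1, DDR2, HSP12, TDH2 and HHF2 in single libraries of ΔET, mET(4) and WT, with IAA left of DMSO, 1 point per library and a bar for the mean. The IAA points of SER3, ENO1, DDR2 and HSP12 in ΔET lie above all DMSO points, for example 7.23 to 10.7 against 4.34 to 4.76 for SER3, while those of the histone gene HHF2 overlap (64.7 to 108 against 78.7 to 115).

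HSP12 is at the low end of new RNA. Only 0.441% of its reads were T>C reads in WT in DMSO, the lowest share of any member, and 1.03% were in ΔET in IAA against 0.762% in DMSO. Transcripts of the mitochondrial genome, made by another polymerase, had shares of 0.0559% to 0.4001% among the genes with the lowest shares. What part of the T>C reads of HSP12 came from older RNA was not tested.

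Of the 3 members called lower in ΔET, 2 had groups that overlapped. LYP1, the lysine permease, had 2.36, 2.76 and 2.13 T>C CPM in IAA, against 6.38, 2.73 and 4.47 in DMSO (log2 change −0.94, SE 0.34, adjusted p = 0.0098, edgeR). The internal transcribed spacer ITS2-2 of the rDNA had 16.3, 19.8 and 18.5 in IAA and 29.1, 17.5 and 39.7 in DMSO (log2 change −0.67, SE 0.28, adjusted p = 0.0248, edgeR). In both, replicate B in DMSO was close to the IAA libraries. CIT1, the mitochondrial citrate synthase, did not overlap, with 2.82, 2.36 and 2.20 in IAA and 3.67, 3.72 and 4.83 in DMSO (log2 change −0.74, SE 0.34, adjusted p = 0.0437, edgeR). The number called lower was 11 without DMSO replicate B and 1 without IAA replicate B or DMSO replicate C, and the number called higher was 2 without IAA replicate B.

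In mET(4), where acidic residues of the ET domain were replaced, SER3 and HSP12 were called higher again. SER3 had 8.15, 13.3 and 8.09 T>C CPM in IAA and 7.98, 4.59 and 3.96 in DMSO (log2 change 0.82, SE 0.32, adjusted p = 0.0361, edgeR). Its lowest IAA value, 8.09, was just above DMSO replicate A. HSP12 had 3.43, 6.06 and 5.81 in IAA, against 3.37, 3.14 and 2.13 in DMSO (log2 change 0.82, SE 0.34, adjusted p = 0.0471, edgeR). ENO1, with 6.73, 7.67 and 5.601 in IAA and 7.98, 4.23 and 3.05 in DMSO, overlapped through DMSO replicate A. It was not called (log2 change 0.38, SE 0.34, adjusted p = 0.331, edgeR). The snoRNA SNR49 was called lower, with 5.08, 7.13 and 10.5 in IAA and 15.8, 12.7 and 12.2 in DMSO (log2 change −0.83, SE 0.30, adjusted p = 0.0239, edgeR). These calls rested on single libraries: the number higher was 11 without DMSO replicate A, 0 without DMSO replicate C or IAA replicate B, and 1 without DMSO replicate B or IAA replicate C, and the number lower was 13 without DMSO replicate C.

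The members also took a larger part of new RNA after IAA in nearly all strains. In ΔET they made up 23.7% to 25.2% of all T>C reads in IAA, against 14.8% to 16.3% in DMSO, and in mET(4) 15.5% to 16.2%, against 9.501% to 11.9%. In Bdf1/2-AID the values that go with the choice of the genes were 26.3% to 26.7% in IAA and 13.1% to 13.9% in DMSO. IAA libraries lay above all DMSO libraries of their strain in 20 of the 22 other strains, the exceptions being WT and mNPS/CPS. In WT the overlap came with the pooling of sets that stood apart: within D to F all IAA libraries lay above all DMSO libraries, within A to C they overlapped, and IAA was higher in 5 of 6 pairs of 1 letter. In mNPS/CPS it was higher in 3 of 3 such pairs. With 3 libraries against 3 an exact two-sided permutation test cannot give a p under 0.10, and none is given.

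**Figure D2:**
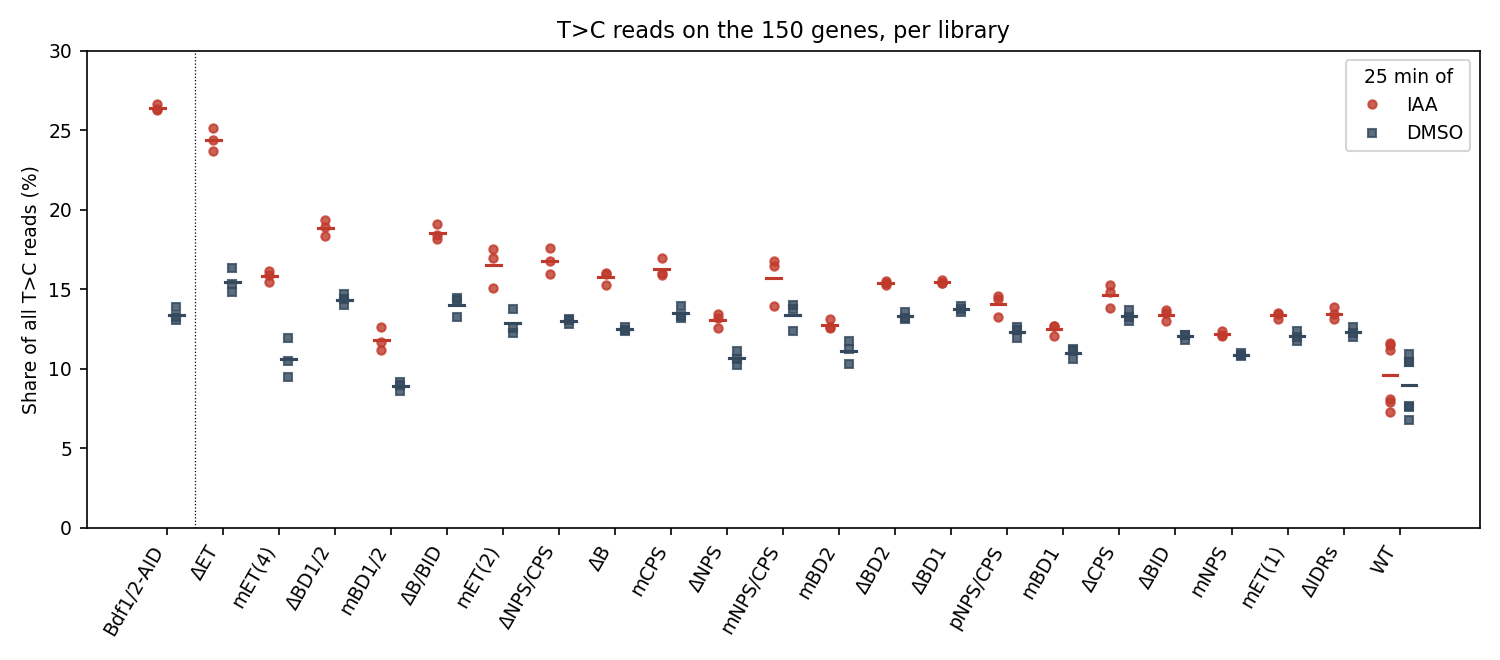
Share of all T>C reads that fell on the 150 members (percent), 1 point per library, for 23 strains with IAA left of DMSO in each. In ΔET the IAA libraries lie at 23.7% to 25.2% and the DMSO libraries at 14.8% to 16.3%, and in WT, where 2 sets of replicates stand apart, at 7.31% to 11.6% and 6.79% to 10.9%.

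Across the 22 strains not used by the rule, the members' median change on IAA was above that of all genes in 22. The difference ran between 0.11 on the log2 scale in WT and 1.02 in ΔET with a median of 0.29, while the members' own medians stayed between −0.24 and 0.08 and those of all genes lay between −1.13 and −0.19. Single genes were followed over strains as well: 40 members (26.7%) were above the all-gene median in every one of the 22 strains, against 19 of the 1808 other genes (1.05%), or 3.01% of all genes tested. The median number of strains above it was 20 for members and 10 for the other genes, and no member was above it in fewer than 11. The 22 strains share neither libraries nor DMSO controls, but they share the tagged background in which the genes were chosen.

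**Figure D3:**
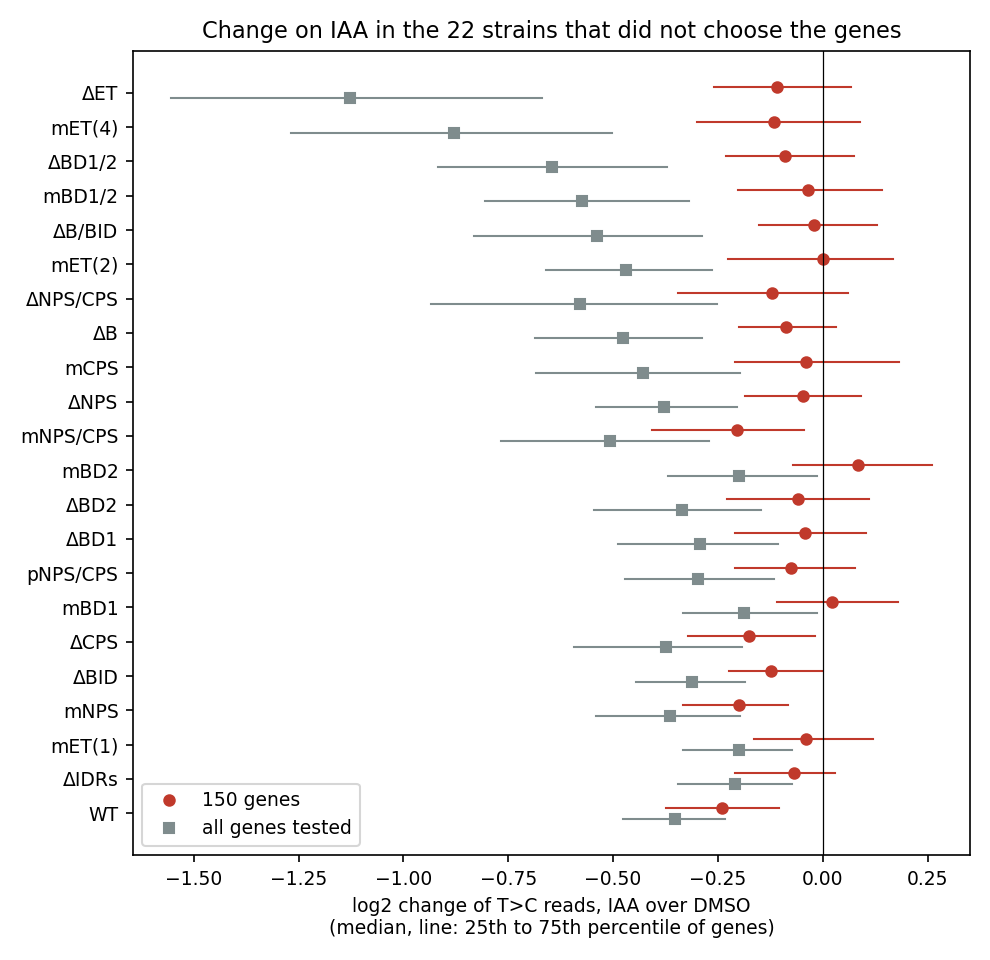
Median log2 change in T>C reads, IAA against DMSO, with quartiles as lines, in each of the 22 strains, for the 150 members above all 1958 genes. The members' medians keep between −0.24 and 0.08 and lie right of the all-gene medians, which reach −1.13 in ΔET, in every strain.

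Rises were rare in these strains and, at this scaling and without a block, fell on members alone. Of all 1958 genes, 0.46% were called higher in at least 1 of the 22 strains. These were 19 calls of a gene in a strain, in 6 strains, and all were of members: SER3 in 5 strains, ENO1 and HSP12 in 3 each, TDH2 and DDR2 in 2 each, and SNR41, PCL1, CIN5 and ILV3 in 1 each. Falls went the other way: 38 members (25.3%) were called lower in at least 1 strain, against 1679 of the 1808 other genes (92.9%), or 87.7% of all. SPO24, a short gene named for sporulation, was called lower in 5 strains, ITS2-2 in 4 and RDN58-1 in 3, more than any other member.

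Beside ΔET and mET(4), the strains with the most genes called lower were ΔBD1/2, ΔB/BID and ΔB. In ΔBD1/2, 9 members were called lower and 2 higher, against 53.9% and 0.102% of all genes. ΔB had 7 lower and 2 higher, against 52.5% and 0.102%, and ΔB/BID had 7 lower and 6 higher, against 53.7% and 0.306%. In mBD1/2 there were 3 lower and 3 higher, against 37.6% and 0.153%. Here SER3, TDH2 and HSP12 were among the rises: SER3 in ΔBD1/2 (log2 change 0.90, SE 0.28, adjusted p = 0.0116, edgeR), TDH2 in ΔB/BID (0.47, SE 0.13, adjusted p = 0.00217, edgeR) and HSP12 in mBD1/2 (1.44, SE 0.39, adjusted p = 0.0108, edgeR).

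No member was called higher in the remaining strains. Members lower numbered 11 in ΔBID (24.8% of all genes), 2 in ΔNPS (17.2%), 6 in mNPS (16.4%) and 5 in ΔCPS (8.02%), with 0% of all genes called higher in each. In ΔNPS/CPS (8.84% of all genes lower), mET(2) (4.7%), pNPS/CPS (0.919%), ΔBD2 (0.511%), mET(1) (0.102%) and mBD1 (0.0511%) no member was called in either direction by edgeR, and the same held in ΔBD1, ΔIDRs, mBD2, mCPS and mNPS/CPS, where 0% of all genes were. At an unadjusted p under 0.05, between 0 and 7 members were lower and between 0 and 8 higher in these 11 strains, beside 4.29% (mNPS/CPS) to 33.8% (mET(2)) of all genes lower and 0% to 0.817% higher. DESeq2 called members in only 1 of them, mET(2), with 4 lower and 1 higher, beside 10.9% of all genes lower and no other gene higher. The replicate letters pair the libraries of mCPS and mET(2). With the letter as a replicate block edgeR called 9 members lower and 11 higher in mCPS, beside 27.2% of all genes lower and 13 of all 1958 genes higher. In mET(2) it called 7 members lower and 9 higher, beside 40.7% of all genes lower and no other gene higher.

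Of the members highest in the ranking, DDR2 had a log2 change above 0 in 21 of the 22 strains (lowest −0.35, median 0.61, highest 1.14), HSP12 in 19 (−1.21, 0.64 and 1.44), SER3 in 18 (−0.20, 0.35 and 0.95), ENO1 in 18 (−0.61, 0.21 and 0.77) and TDH2 in 17 (−0.39, 0.11 and 0.55). RTT101, SNR40 and CMC4 did not hold that place, with a change above 0 in 10, 11 and 11 strains. In the DMSO libraries that chose it, CMC4 had 3.92, 10.3 and 1.01 T>C CPM, a spread wider than that of the IAA libraries (6.18, 6.57 and 8.20).

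With unmodified Bdf1 supplied, in WT, no gene was called in either direction on IAA by edgeR (0% of all genes lower and 0% higher) or DESeq2. At an unadjusted p under 0.05, 11 members were lower and 0 higher, against 16.5% and 0% of all genes. The median log2 change was −0.24 for the members and −0.35 for all genes. The letters of the 6 WT replicates also hold the difference between sets A to C and D to F. Within a set, same-letter correlations were low (0.070 to 0.168 and −0.013 to 0.137), so a match of single libraries by letter is not shown. With the letter as a replicate block, which takes out the difference between sets, 56 members were called lower and 0 higher, beside 48.4% of all genes lower. With replicates D to F alone 2 were. SER3 had 4.67, 5.14, 4.79, 3.67, 6.44 and 3.35 T>C CPM in IAA replicates A to F and 4.11, 6.13, 2.88, 5.31, 4.85 and 4.83 in DMSO, with full overlap (log2 change 0.00, SE 0.23, adjusted p = 0.994, edgeR).

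By function, 76 of the 150 members fell into a list or group of genes. The lists were written with earlier results of these data known, and 4 of the groups (snoRNAs, rDNA, glycerol synthesis and glycolytic activators) after the members had been seen, so that the share of a list that were members describes the choice and tests nothing. All 15 measured genes of glycolysis and fermentation were members. In ΔET their median log2 change on IAA was −0.04 (range −0.21 to 0.77), with 0 called lower and 1, ENO1, higher, and it was −0.03 in mET(4) and −0.25 in WT, beside −1.13, −0.88 and −0.35 over all genes. PGK1, phosphoglycerate kinase, had 78.8, 95.9 and 103 T>C CPM in ΔET in IAA, against 101, 59.6 and 93.2 in DMSO, and FBA1, the aldolase, 44.0, 50.4 and 60.9 against 54.0, 41.9 and 57.1. Both overlapped. In these genes only 1.32% to 4.21% of reads were T>C reads in WT in DMSO, against a median of 10.0% in other genes. Of the 4 transcription factors of glycolysis, GCR1 and TYE7 were members (median −0.25 in ΔET, none called). The other 2, RAP1 and GCR2, were called lower in ΔET, and the median of all 4 was −0.85.

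Genes that feed or leave glycolysis gave similar values. The 3 measured genes of glycerol synthesis (GPP1, GPD2 and GPD1) were members with a median of −0.12 in ΔET and none called. The hexose transporters HXT3, HXT7 and HXT1, 3 of 4 measured and of 16 on the whole list, had a median of 0.29 in ΔET and −0.13 in mET(4). None was called in either. HXT3 had 4.45, 4.63 and 5.30 T>C CPM in ΔET in IAA, and 5.36, 3.10 and 4.61 in DMSO. Over the 22 strains the median of the members was above the all-gene median in 22 for glycolysis (by 0.06 to 1.09) and hexose transporters (0.34 to 1.42) and in 21 for glycerol synthesis.

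Of all lists, that of Msn2/4 stress genes had the highest member median in ΔET. Of 30 Msn2/4 genes on the whole list only 5 passed the filter on T>C reads, and 4 of these 5 were members (HSP12, DDR2, YGP1 and TPS2). Their median log2 change was 0.69 in ΔET (0 lower, 2 higher), 0.47 in mET(4) (0 lower, 1 higher) and 0.09 in WT, and it was above the all-gene median in 21 of 22 strains. YGP1, a secreted glycoprotein, was also the only member on the weak acid list (1 of 3 measured, of 12 on the whole list). It had 9.90, 10.6 and 8.74 T>C CPM in IAA in ΔET, and 6.74, 7.68 and 4.97 in DMSO. Its groups did not overlap, but it was not called (log2 change 0.60, SE 0.30, adjusted p = 0.0653, edgeR). SRX1, TRR1, TSA1, GPX2 and TRX2, redox genes under Yap1 (5 of 15 measured), had a median of −0.08 in ΔET with none called. By contrast 1 of 21 Hsf1-driven chaperone genes was a member, the ubiquitin gene UBI4 (0.20 in ΔET), and 1 of 8 drug efflux genes, PDR16 (−0.16).

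Histone genes and genes of the cell cycle were a further block. Of 11 measured histone genes, 6 were members (HTB2, HHO1, HHF2, HTA2, HHT2 and HHT1), with a median of −0.27 in ΔET, −0.05 in mET(4) and −0.14 in WT and none called, while 3 of the 11 were called lower in ΔET. HHF2, an H4 gene, had 64.7, 72.9 and 108 T>C CPM in ΔET in IAA and 78.7, 92.9 and 115 in DMSO. The 6 histone members had a median above the all-gene median in 22 of 22 strains. The cyclin genes PCL1, PCL9, CLN3 and CLB6 (4 of 12; −0.26 in ΔET) and the cell wall genes CIS3, CCW12 and SCW4 (3 of 17; −0.09) had none called.

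Small nucleolar RNAs and the spliceosomal LSR1 (12 of 19 measured, of 82 on the whole list) had a median of 0.21 in ΔET (range −0.19 to 0.53, none called). In mET(4) it was −0.26, and SNR49 was called lower. Sections of the rDNA repeat, transcribed by RNA polymerase I (RDN18-2, ITS1-2, ITS1-1, RDN58-1, RDN58-2 and ITS2-2, 6 of 15), had medians of −0.41 and −0.29, and were above the all-gene median in 18 of 22 strains. In the remaining lists members were few: SER3, LEU4, GLN1 and ILV3 of 22 genes of amino acid synthesis (median −0.20 in ΔET), LYP1, BAP3 and MEP3 of 8 permease genes (−0.43, 1 lower), QCR6 and COR1 of 29 genes of the respiratory chain (−0.22), and DBP2 of 47 genes of ribosome biogenesis (0.07, where 43 of the 47 were called lower). None of the 136 cytosolic ribosomal protein genes was a member (median −0.88 in ΔET, 123 lower), and none of 8 phosphate, 6 mating, 4 sulfur or 2 mitochondrial genes. BDF1 itself was a member. In strains with a further copy its reads come from both copies, and in Bdf1/2-AID from the tagged one alone. There BDF1 had 12.5, 11.1 and 11.9 T>C CPM in IAA, and 8.69, 15.8 and 14.3 in DMSO.

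**Figure D4:**
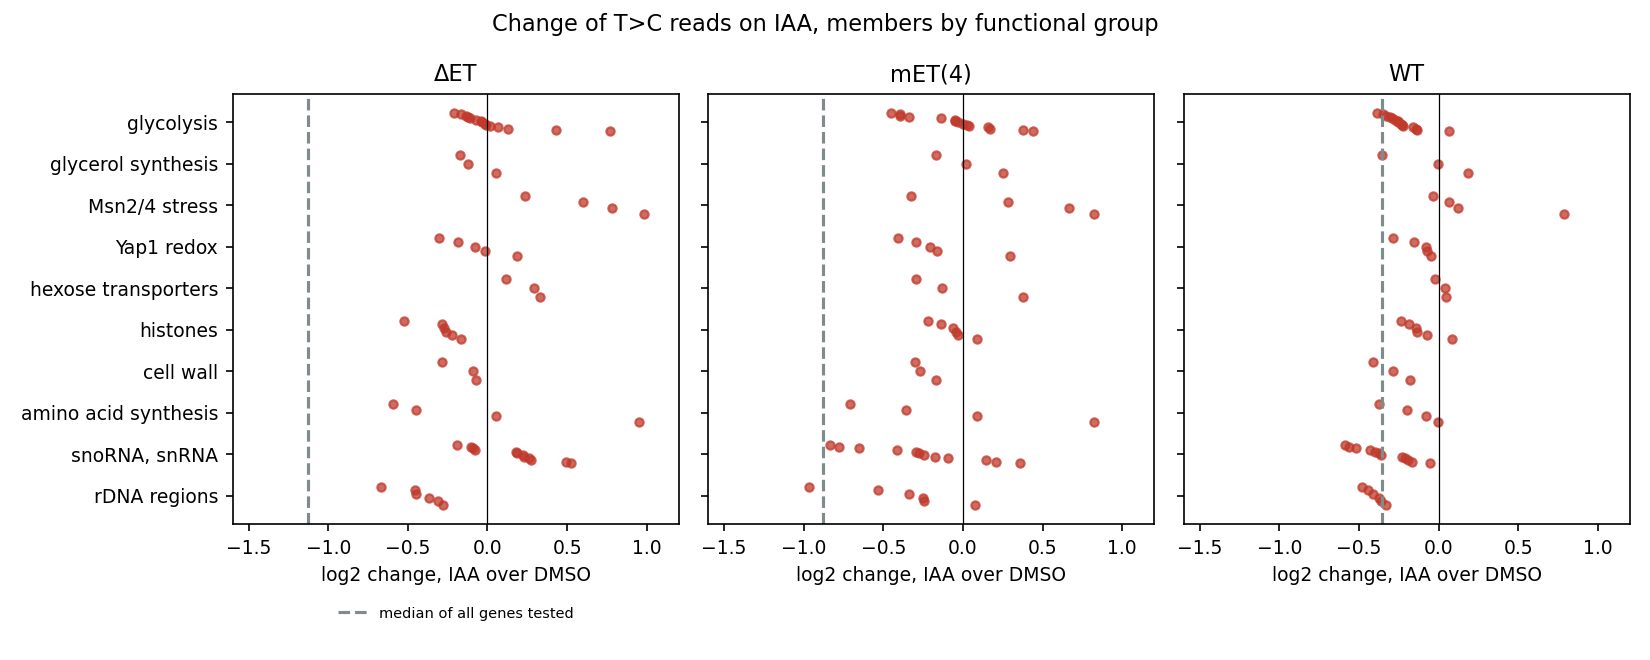
Log2 change in T>C reads, IAA against DMSO, of the members of 10 functional groups in ΔET, mET(4) and WT, 1 point per gene, with the median of all 1958 genes as a line for each strain. In ΔET the medians of the groups keep between −0.41 (rDNA) and 0.69 (Msn2/4), above the all-gene median of −1.13.

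SER3 was not alone at its locus among the members. SRG1, a non-coding RNA read through the SER3 promoter that keeps SER3 low when serine is present, was member 109, and its counted region (chrV:322212-323012) overlaps 19.7% of the region of SER3 on the same strand. SRG1 had 12.4, 15.7 and 20.6 T>C CPM in ΔET in IAA, against 17.1, 12.9 and 18.1 in DMSO, so that its groups overlapped where those of SER3 did not. In mET(4) SRG1 had 34.6, 51.5 and 63.4 in IAA and 76.1, 78.5 and 51.6 in DMSO. How reads in the shared stretch were divided between both genes was not tested.

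After depletion, the distance between strains can also be read directly, and this comparison, unlike IAA against DMSO, holds what differed between strains before depletion. In ΔET against WT in IAA, 27 members were called lower and 20 higher, beside 74.7% and 1.33% of all genes. The median log2 difference was 0.03 for the members and −1.58 for all genes. In mET(4) against WT it was −0.16 and −1.17, with 16 members called lower and 13 higher, beside 70.3% and 1.02%. With size factors 2 members were lower and 88 higher in ΔET against WT, beside 39.7% and 10.4% of all genes, and with TMM 0 and 120, beside 19.7% and 23.6%, while the median difference of all genes shifted to −0.67 and −0.09. In mET(4) against WT size factors gave 0 and 40, beside 3.32% and 3.37%, and TMM 0 and 69, beside 2.25% and 7.76%. Under TMM most genes called higher were not members, 342 in ΔET and 83 in mET(4). Both comparisons use the same WT libraries.

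The counts of members called depended on the WT set, while the distance from other genes kept its direction. The distance between member and all-gene medians was 1.77 with replicates A to C of WT and 1.49 with D to F for ΔET, and 1.19 and 0.88 for mET(4). Members called lower against D to F were 44 for ΔET and 67 for mET(4), and members called higher against A to C were 60 and 36. Without ΔET replicate A 13 members were lower in ΔET. For mET(4) 29 were lower without WT replicate C, 9 without WT replicate D, and 7, 4 and 10 without mET(4) replicates A, B and C, while 7 and 6 were higher without mET(4) replicates B and C. The shares of all genes called in these fits are not given, so the counts of members are not set against them.

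The highest differences among the members were those of HSP12 and DDR2. DDR2 had 21.2, 22.4 and 15.8 T>C CPM in ΔET in IAA, against 0.754, 0.308, 1.03, 1.76, 2.58 and 1.61 in WT (log2 difference 3.94, SE 0.38, adjusted p = 2.07e-06, edgeR). HSP12 had 16.3, 15.4 and 22.2 in ΔET and 0.151, 1.85, 0.456, 1.44, 0.920 and 1.34 in WT (log2 difference 4.09, SE 0.39, adjusted p = 2.07e-06, edgeR). Neither overlapped with any WT library of either set. The glucose-repressed transporter HXT7 (log2 difference 2.37, SE 0.42), YGP1 (2.32, SE 0.46), SRX1 (2.08, SE 0.40) and ENO1 (2.0, SE 0.38) followed. In mET(4) the difference was 2.27 for HSP12 (SE 0.46, adjusted p = 0.00146, edgeR), 1.35 for HXT7 (SE 0.51) and 1.28 for ENO1 (SE 0.40), while DDR2 (1.08, SE 0.50, adjusted p = 0.0598, edgeR) was not called. HSP12 and DDR2 were already high in ΔET in DMSO, at 6.74 to 10.9 and 9.09 to 15.1, where the tagged proteins were present. The libraries of mET(4), unlike those of ΔET, were numbered next to WT replicates A to C. What part of the gap between ΔET and mET(4) in these genes goes with that was not tested.

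The lowest difference among the members was that of GPD2, for which the WT sets disagreed. GPD2, a glycerol-3-phosphate dehydrogenase, had 3.45, 3.74 and 3.72 T>C CPM in ΔET in IAA, against 14.5, 5.45 and 7.41 in WT replicates A to C and 105, 78.4 and 36.2 in D to F (log2 difference −3.49, SE 0.81, adjusted p = 0.000843, edgeR). All WT libraries were above ΔET, but D to F far more so. In mET(4) GPD2 had 9.92, 3.77 and 6.53, overlapping with A to C and below D to F (−2.60, SE 0.79, adjusted p = 0.00963, edgeR).

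**Figure D5:**
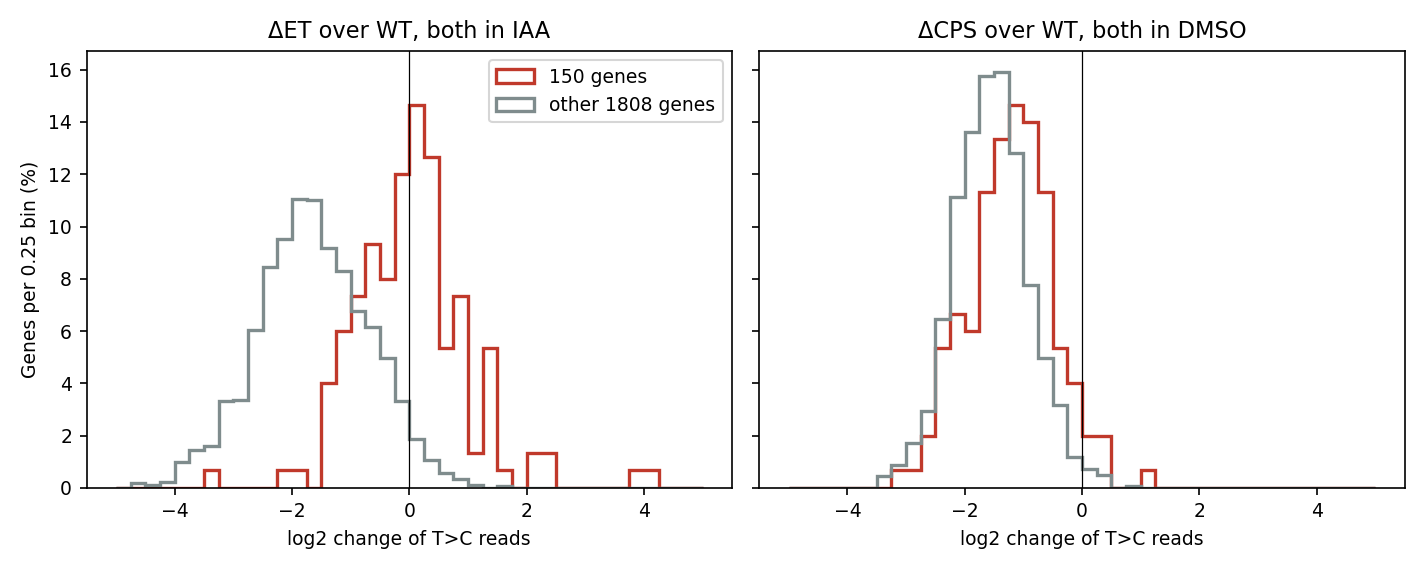
Histograms of log2 differences in T>C reads for ΔET against WT in IAA and ΔCPS against WT in DMSO, members and the other 1808 genes tested. For ΔET the members centre near 0.03 and the distribution of all genes near −1.58, and for ΔCPS both are shifted, to −1.19 and −1.52.

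In ΔCPS, ΔNPS/CPS and mNPS/CPS most genes were lower than in WT although tagged Bdf1 and Bdf2 were present, and most members were called lower too. In ΔCPS against WT in DMSO 109 members were called lower and 0 higher, beside 87.6% and 0.0511% of all genes. DESeq2 called 112 lower and 1 higher. ΔNPS/CPS had 108 lower and 2 higher, beside 90.7% and 0.153%, and mNPS/CPS 114 lower and 1 higher, beside 91% and 0.102%. The members' median log2 differences were −1.19, −1.21 and −1.26, against −1.52, −1.59 and −1.63 over all genes, leaving distances of 0.34, 0.38 and 0.37. These were 0.56, 0.61 and 0.58 with WT replicates A to C alone and 0.25, 0.25 and 0.23 with D to F alone. In mNPS/CPS 70 members were called lower with A to C, beside 70.8% of all genes, and 131 with D to F, beside 96.3%. Among strains with lower levels in DMSO the distance varied, and 2 comparisons with larger ones were added after seeing the data. In ΔBD2 and mET(4), also lower than WT in DMSO, it was 0.22 and 0.33. In ΔET against WT in DMSO 29 members were called lower and 10 higher, beside 47.7% and 0.868% of all genes, with medians of −0.04 and −0.77, and in mCPS 21 and 3, beside 24% and 0.204%, with −0.09 and −0.60. In both the member median turned with the WT set, at 0.33 (A to C) and −0.33 (D to F) in ΔET and 0.32 and −0.41 in mCPS. The distance was 0.964 (A to C) and 0.485 (D to F) in ΔET and 0.760 and 0.277 in mCPS. With D to F the distance in mCPS was thus close to those in ΔCPS, ΔNPS/CPS and mNPS/CPS. In ΔCPS, ΔNPS/CPS and mNPS/CPS the member medians under TMM were 0.33, 0.35 and 0.38 and the all-gene medians −0.03, −0.05 and −0.02. There the members called lower were 1, 0 and 0, beside 4.19%, 0.306% and 0% of all genes. Those called higher were 23, 13 and 5, beside 7.92%, 1.48% and 1.02%, and 132, 16 and 15 other genes were called higher too. These are differences between strains grown apart, with 1 strain for each variant.

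Single genes show this fall. HHF2 had 39.3, 39.3 and 36.4 T>C CPM in ΔCPS in DMSO, against 94.5, 96.4, 84.1, 97.4, 100 and 79.2 in WT, and PGK1 47.4, 41.2 and 47.1, against 102, 76.2, 56.4, 107, 112 and 103. No ΔCPS library of either gene reached a WT library. All 12 members among the snoRNAs and LSR1 were lower (median −2.18), and so were 5 of the 6 histone members (−1.51) and 6 of the 15 glycolytic members (−0.77). Among the Msn2/4 stress genes the values went both ways. Of the 4 Msn2/4 members, 3 were called lower in ΔCPS (median −1.64), and 1 was called lower in each of the other 2 strains. The exceptions in those 2 strains were HSP12 and DDR2. HSP12 was higher in ΔNPS/CPS (log2 difference 1.83, SE 0.66, adjusted p = 0.0159, edgeR) and mNPS/CPS (2.51, SE 0.63, adjusted p = 0.000549, edgeR), and DDR2 in ΔNPS/CPS (1.12, SE 0.51, adjusted p = 0.0454, edgeR).

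Whether the change on IAA itself differed between a variant and WT was tested with an interaction term. No member passed in either direction by edgeR, beside 12.4% of all genes that fell more in ΔET than in WT and 0.153% in mET(4). At an unadjusted p under 0.05, 0 members fell more and 3 fell less or rose more in ΔET, and 0 and 1 in mET(4). DESeq2 called 1 member, RTT101, higher in ΔET, beside 18.9% of all genes lower and 0.0511% higher, and 0 in mET(4). With a replicate block edgeR called 0 members lower and 8 higher in ΔET, beside 39% and 0.409% of all genes, and 0 and 2 in mET(4), beside 18.3% and 0.153%. That block joins libraries of both strains by letter alone. Same-letter correlations with WT A to C in IAA were −0.020 to 0.012 for ΔET and 0.058 to 0.219 for mET(4). With WT replicates A to C alone there were 0 lower and 6 higher in ΔET, beside 21.5% and 0.306%, with D to F alone 0 and 5, beside 32.3% and 0.306%, and none in mET(4) with either. TDH2 and RTT101 were among the members higher in ΔET in all 3 of these fits. In ΔET 1 member passed without WT IAA replicate C, WT DMSO replicate C or WT DMSO replicate E. For SER3 the difference of the changes was 0.95 (adjusted p = 0.0728, edgeR) in ΔET and 0.83 (adjusted p = 0.267, edgeR) in mET(4), and for ENO1 0.72 (adjusted p = 0.338, edgeR) in ΔET. In ΔET the adjusted p for SER3 was 0.0299 with the block, 0.162 with A to C and 0.0258 with D to F (edgeR), and that for ENO1 0.0924, 0.0426 and 0.409. The test of the difference for these genes therefore depended on the WT libraries and the block.

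In length and level the members resembled other genes with some shifts. Counted regions had a median of 1208.5 bases, against 1438 in the other genes tested, and their T content was 30.7% against 28.6%. T>C CPM in WT in DMSO had a median of 12.0 against 7.75, and CPM of all reads 104 against 79.3. The T>C share of reads, which is lower for RNA that lives long, was 7.81% against 10.0%, and it ran over the members between 0.441% and 53.1%. Within each of 3 strata of equal size by region length, T>C level, read level or T>C share, the members' median change on IAA lay above that of the other genes by 0.85 to 1.22 on the log2 scale in ΔET and by 0.65 to 1.01 in mET(4). The distance was thus present at each length and level.

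By kind of gene, 129 of the 1906 protein-coding genes tested were members (6.77%), beside 11 of 18 snoRNAs, 3 of 8 rRNA genes, 3 of 8 genes of miscellaneous RNA, 2 of 2 non-coding RNAs, 1 of 1 snRNA, 1 of 2 pseudogenes and 0 of 11 tRNAs. Same-strand overlap of counted regions touched 25 members (16.7%), against 16.96% of all genes tested. Members that overlap on the same strand, such as SNR70 and SNR41, are not independent if reads were counted for both. CMC4 and SNR11, both members, overlap by 439 bases on opposite strands. At another opposite-strand overlap few reads, if any, were shared: YDR524C-B had 455935 reads in WT in DMSO. YDR524W-C, which overlaps it by 340 bases, had 17. Whether CMC4 and SNR11 shared reads was not tested. Genes with near-identical copies, among them TDH2 and TDH3, ENO1 and ENO2, the histone genes and the rDNA sections, are uncertain, as reads can be divided between copies. Multimapped reads made up a median of 0.202% and at most 1.95% of a member's reads.

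Total reads moved the same way. On IAA in ΔET the median log2 change of CPM of all reads (with 0.5 added) was 0.28 for the members and −0.48 for all genes, and the distance was above 0 in 22 of 22 strains, between 0.07 and 0.75. Members made up 16.4% to 17.5% of all reads in IAA in ΔET, against 13.3% to 14.7% in DMSO, while in mET(4) the ranges overlapped (8.40% to 9.26% against 6.14% to 10.2%). In WT they were 5.43% to 6.21% and 11.5% to 12.0% in IAA replicates A to C and D to F, and 4.84% to 6.02% and 11.2% to 11.5% in DMSO. Because T>C reads were divided by library totals, such a shift in total reads is part of each value given, and its size in new RNA per cell was not measured.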

How the data were processed

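The 144 SLAM-seq libraries come from 23 strains. The authors preprocessed reads with fastp (version 0.23.2) and bbduk and used SLAM-DUNK for alignment, filtering and counting, with counted regions of the R64 build that run past the 3′ end of the coding region. The deposited values are raw counts per gene and library of all reads and of T>C reads, those with at least 2 conversions. Strand use in counting is not given in the sources used here. Column totals differ between libraries, and 0 columns were left unused. Of 6465 identifiers, 6462 matched the reference annotation, from which names and sequences come.

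Members were ranked as described, and the members and all gene lists were chosen with earlier results of these data known. T>C counts were fitted with edgeR 4.0.16 (R 4.3.3) by its quasi-likelihood test on the libraries compared alone, with the sum of all counted reads as library size, as the methods normalize by total reads. P-values were adjusted by Benjamini-Hochberg over the 1958 genes with a mean of at least 30 T>C reads in Bdf1/2-AID in DMSO. Alternatives were size factors of total reads, TMM, other filters, member numbers and minimum counts, DESeq2 1.42.0, a fit over 144 libraries, WT sets, a replicate block and leaving out libraries. Fits were tested on simulated counts. Named members are the 10 highest ratios, members past the threshold in ΔET, mET(4) or WT with a mean of at least 50 T>C reads and no overlap, genes at the rank limit and list members. Others, such as ITS2-2, SRG1, SPO24, GPD2 and the genes called in single strains, were chosen after their values were seen. One group of members is not reported here. The labels call replicates by letter and the methods state biological replicates.

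Replicate letters were checked by correlating deviations of same-lettered IAA and DMSO libraries from their group means. All pairs were above 0.1 in WT (0.475 to 0.764), mCPS (0.125 to 0.265) and mET(2) (0.158 to 0.414), where the letters were taken to pair libraries. The pairing comes from the letters and these correlations, and what a letter marks is not stated. Within WT sets the values were 0.070 to 0.168 (A to C) and −0.013 to 0.137 (D to F).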

Additional observations from a re-analysis of the deposited data

Results flagged for a closer look

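Of 114 groups of 6 WT libraries examined, 4 held a library far from the others, where chance alone flags about 1 in 20. GLT1, a glutamate synthase gene just outside the rank limit, had 8.44 T>C CPM in IAA replicate A, against 4.05 to 5.42 in the other IAA libraries. HXT7 had 2.99 in DMSO replicate E, against 0.480 to 1.42 in the other DMSO libraries. The cyclin gene PCL1 had 11.8 in DMSO replicate F, against 16.1 to 18.4 in the others. The cyclin gene CLB6 had 6.91 in DMSO replicate C, against 13.2 to 15.5 in the others. The cause was not tested for any of them.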

How the results depend on the processing

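The distance of the members from other genes kept its direction in every alternative run, and counts of called members moved with the scaling. Members lower and higher on IAA in ΔET were 0 and 15 with size factors and 0 and 129 with TMM, and in mET(4) 0 lower with either and 17 higher with TMM. A minimum of 1 T>C read in all libraries gave 2 higher in ΔET and 2 lower and 1 higher in mET(4), and no filter gave 3 lower and 1 higher in mET(4). DESeq2 gave 1 higher in mET(4). A fit over all libraries gave 6 lower and 2 higher in ΔET, 3 lower and 1 higher in mET(4) and 4 lower in WT. With a replicate block there were 7 lower in ΔET, 5 in mET(4) and 56 in WT, and with WT replicates D to F alone 2 in WT. In ΔET and mET(4) the replicates share only a letter (correlations −0.084 to 0.090 and 0.015 to 0.066). The distance of medians was 1.246 without a filter and 0.878 with a minimum of 100 T>C reads in ΔET, and 0.994 and 0.671 in mET(4), where the 100 and 200 highest genes gave 0.808 and 0.722.

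Against WT in IAA, ΔET had 2 lower and 88 higher with size factors, 0 and 120 with TMM and 43 and 38 in the fit over all libraries, 44 lower with WT D to F, 60 higher with A to C and 59 higher with the block. For mET(4) these were 0 and 40, 0 and 69, and 37 and 23, with 8 and 42 under the block, 8 and 36 with A to C and 67 and 31 with D to F. Shares of all genes called are not given for these WT sets, the block or the fit over all libraries. The distance in ΔET was 1.869 without a filter, 1.742 with the block, 1.770 (A to C), 1.491 (D to F), 1.475 (200 genes) and 1.444 (100 reads), and in mET(4) 1.173, 1.204, 1.189 and 0.880 for the first of these, and 0.867 with 100 reads. In DMSO it was 0.581 with the block, 0.558 (A to C), 0.246 (D to F), 0.396 (100 genes), 0.258 (200 genes) and 0.401 (100 reads) in ΔCPS, 0.450 (no filter), 0.625, 0.609, 0.251 and 0.497 (100 genes) in ΔNPS/CPS, and 0.604 and 0.576 in mNPS/CPS. Members passing the interaction test in ΔET were 1 with TMM or DESeq2, 5 in the fit over all libraries, 8 with the block, 6 with A to C and 5 with D to F, and in mET(4) 2 with the block.

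Leaving out 1 library gave 1 to 11 members lower and 2 to 5 higher in ΔET (distance 0.953 to 1.051), 1 to 13 and 0 to 11 in mET(4) (0.719 to 0.845) and 0 to 0 of either in WT (0.064 to 0.18). Against WT it gave 13 to 30 and 14 to 27 in ΔET (1.521 to 1.639), 4 to 29 and 6 to 14 in mET(4) (0.981 to 1.053), and in DMSO 0.294 to 0.399, 0.347 to 0.429 and 0.276 to 0.494 in ΔCPS, ΔNPS/CPS and mNPS/CPS. The interaction had 0 to 1 members in ΔET and 0 to 0 in mET(4), and 22 to 22 strains stayed above. The remaining 122 alternative values lay within 1 SD between libraries or, for counts, within 1.5 times of those reported, and 0 changed direction. That SD was wide in mNPS/CPS against WT (0.165), where D to F gave 0.232 beside 0.371. The cause was not tested. Few T>C reads limit single members: the lowest had a mean of 5.5 in WT in DMSO.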
